A study of Saccharomyces cerevisiae with 8 samples.

Results

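The 50 genes described here encode budding yeast ribosome biogenesis factors and RNA polymerase I: nucleolar proteins of the NOP, DBP, RRP, UTP, NOG, IMP and ENP families, other assembly factors of the large subunit, the RPA subunits of RNA polymerase I and its initiation factor Rrn3. They were chosen by systematic ORF identifier, from YDL014W (NOP1), YOR341W (RPA190) and YKL125W (RRN3) to YBL004W (UTP20), among 7122 features of a count table. All 50 carried enough counts to be tested, as did 5696 features in all. The starting material was total RNA of Saccharomyces cerevisiae of the W303 background lacking PDR1 and PDR3, a pair of genes for regulators of drug efflux. All 4 groups therefore carried those deletions, and all were log-phase cultures in galactose medium at 30 °C. The controls received the solvent DMSO, and the others received clioquinol (CQ, a metal-chelating 8-hydroxyquinoline) at 0.8 µM, the DHPM-thione (a dihydropyrimidine-thione) 10{3,3,1} at 20 µM, which the labels call active, or the DHPM-thione 11 at 20 µM, which they call inactive. Exposure lasted about 6 h, and each group had 2 libraries from biological replicates, per the series design. The growth protocol writes mM in place of µM and wild-type in place of the deletions; the sample labels' µM doses and deletion strain are used here.

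Ribosome production starts in the nucleolus, where RNA polymerase I transcribes the long precursor of most ribosomal RNAs. Small nucleolar ribonucleoproteins modify that precursor, and the UTP complexes and their partners fold it into the small subunit processome. Helicases, GTPases and scaffold proteins help the large subunit precursor to mature. Yeast transcribes the genes for these factors as one large co-regulated group, known for being switched on by rich nutrients through TORC1, Sch9 and Sfp1 and switched off by many stresses. PAC and RRPE, a pair of short promoter motifs, mark many of these genes; Dot6 and Tod6 bind PAC, and Stb3 binds RRPE.

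Both strain and medium could be checked. PDR1 and PDR3 had 0 counts in all 8 libraries. The 7 genes of galactose use (GAL1, GAL2, GAL3, GAL7, GAL10, GAL80 and GAL4) summed to between 18700 and 28790 CPM (read counts brought to 1 library size by TMM factors), so the galactose medium was visible in every library. Totals ran from 12076141 to 19021672 counts, and no member had fewer than 938 counts in any library, so counting error was small beside the spread between replicates. Replicates differed by far more than sampling noise, with chi-square values per degree of freedom of 22.8 for DMSO, 103 for CQ and 54.1 and 45 for the active and the inactive thione. Each library is RNA of a whole culture expressed as shares, so fewer cells expressing a gene and less RNA per cell cannot be told apart.

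With either thione, nearly the whole set lay slightly below the solvent controls, by about the same amount and with no member past the test. The median log2 fold change of the 50 members was -0.358 with the active thione, a level 1.28-fold lower, and -0.375 with the inactive thione, 1.3-fold lower, beside medians of 0.0312 and 0.0316 over all tested features. All 50 members were below 0 with the active thione, from -0.62 for UTP20 to -0.14 for NOG2, and 49 of 50 with the inactive thione, where MAK16 alone was at 0.01 and UTP8 lowest at -0.71. The interquartile range was -0.431 to -0.324 with the active thione and -0.473 to -0.233 with the inactive thione. With CQ the median was 0.0666, beside 0.0288 over all features, 18 of 50 members were below 0, and values ran from -0.49 for NOP56 to 0.81 for MAK16. The 3 comparisons share the DMSO libraries, and the CQ dose differed from that of the thiones, so their values stand side by side without a test between them.

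**Figure D1:**
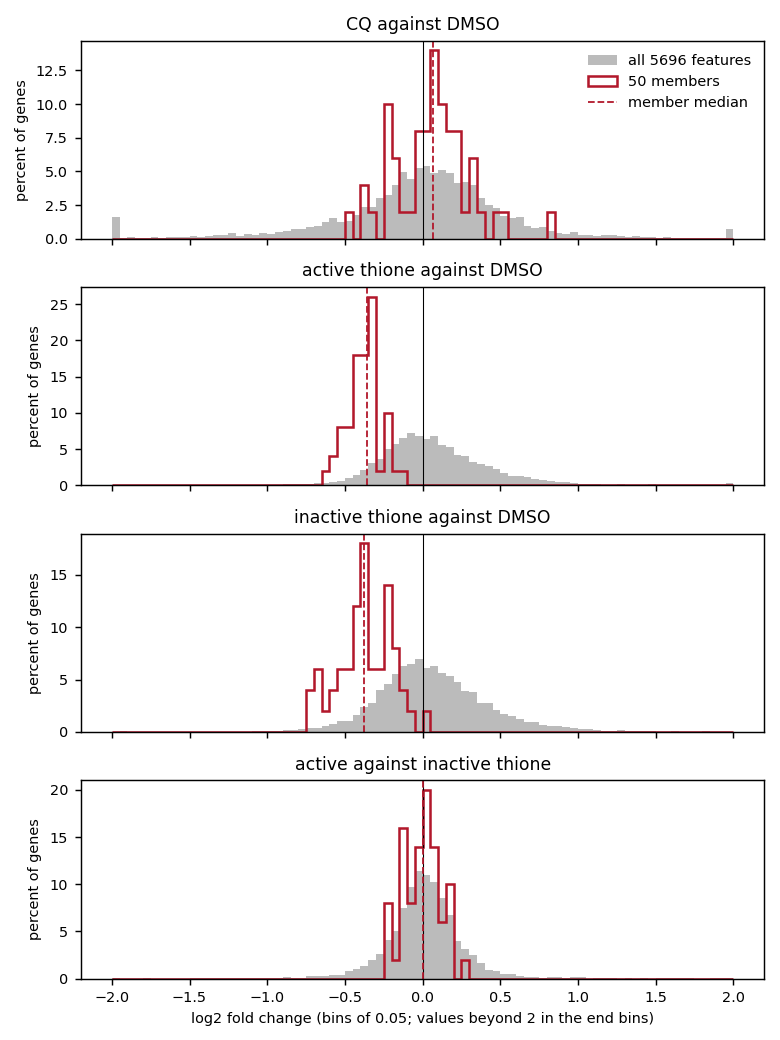
Percent of genes (y axis) in bins of log2 fold change (x axis) for all 5696 tested features (grey) and the 50 members (red line), with the members' median dashed. The members sit to the left of 0 with both thiones, at medians of -0.358 and -0.375, and around 0 with CQ and between the thiones.

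By edgeR's quasi-likelihood test with Benjamini-Hochberg adjustment over all 5696 features at 0.05, no member was called in any comparison. With the active thione the smallest adjusted p of a member was 0.184, and 63 features (1.11%) were called higher and 15 (0.263%) lower. An unadjusted p under 0.05 was found for 7 members, all lower, against 3.32% of all features lower and 10.5% higher. That count was 0 without DMSO replicate 1 or active thione replicate 2, 24 without active thione replicate 1, 16 without either CQ library and 13 without inactive thione replicate 2. With the inactive thione the smallest adjusted p was 0.344, and 8 features (0.14%) were called higher and 1 (0.0176%) lower. Here 16 members had an unadjusted p under 0.05, all lower, against 4.23% of all features lower and 8.74% higher; the count was 0 without DMSO replicate 1 or inactive thione replicate 2 and 9 without DMSO replicate 2. The shares of all features at an unadjusted p under 0.05 are from the fit of all 8 libraries and were not computed with a library left out. With CQ 280 features (4.92%) were called higher and 478 (8.39%) lower, and the smallest adjusted p of a member was 0.0723. With CQ 2 members higher and 1 lower had an unadjusted p under 0.05, against 13.8% of all features higher and 14.5% lower. Without CQ replicate 2 the member median was 0.153, beside -0.0057 over all features. With DESeq2 0 members were called for either thione and 1, UTP5, was called higher for CQ. DESeq2 called 380 features higher and 580 lower with CQ.

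Most members nonetheless kept both treated libraries below both controls. With the active thione that held for 47 of 50 members, against 23.3% of all features, and no member had both libraries above both controls, against 29.8%. With the inactive thione it held for 44 of 50, against 26.4%, and again for no member in the other direction, against 32.2%. With CQ 9 members had both libraries below both controls, against 27.6% of all features, and 6 had both above, against 29.5%. All 4 thione libraries lay below both controls for 41 members, against 15.5% of all features. The 9 exceptions were NOP1, UTP5, UTP22, YTM1, MAK16, BRX1, NOG2, NUG1 and RRP8.

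Comparing both thiones together with DMSO, a contrast added after the values were seen, gave a member median of -0.357, a smallest adjusted p of 0.183 and 0 members called by edgeR's quasi-likelihood test, with 21 lower at an unadjusted p under 0.05, against 5.6% of all features lower and 11.8% higher. The 21 became 0 without DMSO replicate 1, 9 without active thione replicate 2, 10 without inactive thione replicate 2 and 32 without either CQ library. Here too the shares of all features were not computed with a library left out. In that contrast 45 features (0.79%) were called higher and 8 (0.14%) lower.

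The libraries differed within groups in the same direction across the set. Relative to each member's mean over 8 libraries, the members' median log2 level was 0.234 and 0.136 in DMSO replicates 1 and 2. It was 0.377 and 0.0342 with CQ, -0.00372 and -0.389 with the active thione, and -0.0317 and -0.336 with the inactive thione. Replicate 1 was above replicate 2 for 41 members in DMSO, 44 with CQ, 46 with the active thione and 50 with the inactive thione. Over all features the shares were 47.5%, 49.1%, 49.5% and 48.5% in the same order of groups. The median gap between replicates was 0.131, 0.266, 0.369 and 0.342 on the log2 scale in that order, so with either thione it was about as large as the difference from DMSO; over all features the median gap was between -0.0127 and -0.00338. CQ replicate 1 was the highest of all libraries for 33 members, against 26.6% of all features, and DMSO replicate 1 for 16 members. The lowest value was in active thione replicate 2 for 24 members and in inactive thione replicate 2 for 23. The matching shares over all features were computed for CQ replicate 1 only.

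Leaving out 1 library moved the size of the shift but not its sign. Without active thione replicate 2 the median was -0.222, and without active thione replicate 1 it was -0.566. For the inactive thione those medians were -0.238 and -0.555. With CQ the sign did depend on 1 library: the median was -0.173 without CQ replicate 1 and 0.153 without CQ replicate 2. The members together took 3.45% and 3.21% of all counts in DMSO, 3.76% and 3.17% with CQ, 2.89% and 2.25% with the active thione and 2.82% and 2.31% with the inactive thione.

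**Figure D2:**
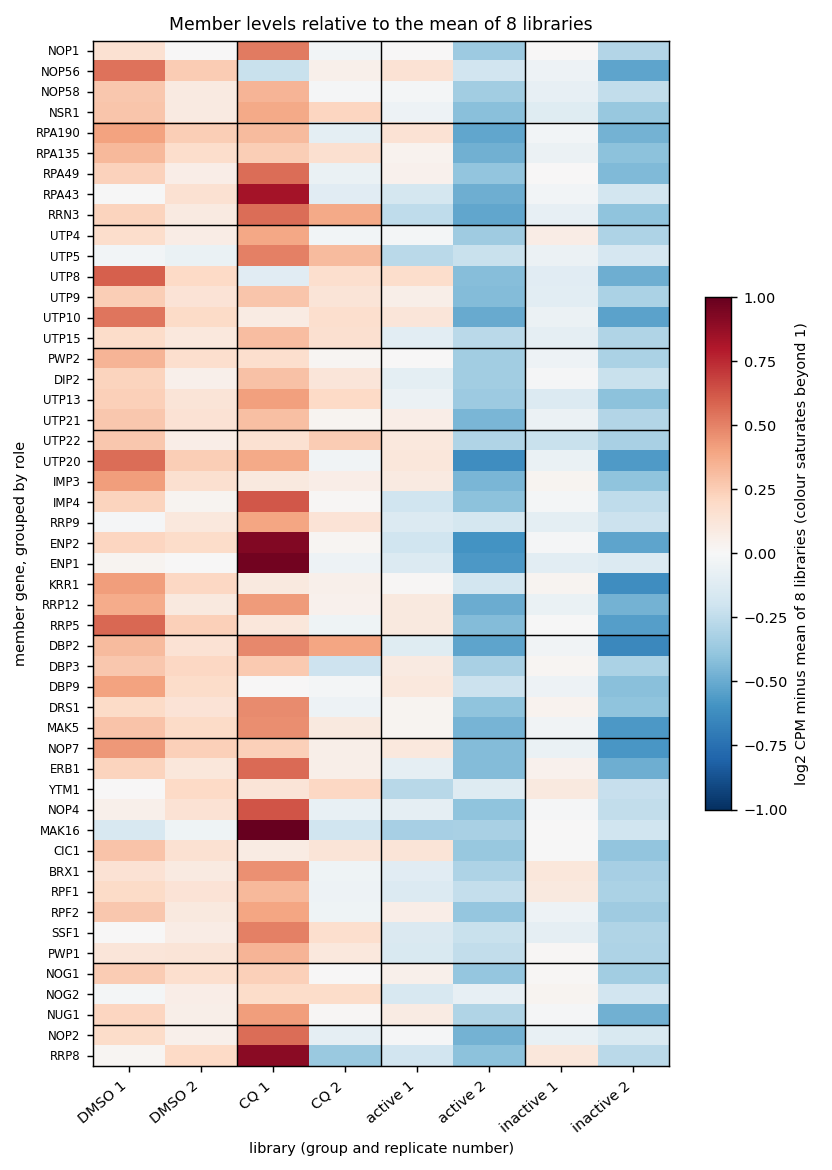
Colour gives each member's log2 CPM minus its mean over the 8 libraries, with members as horizontal lines grouped by role and libraries as columns; colours saturate beyond 1. Blue fills the columns of active and inactive thione replicate 2, whose medians are -0.389 and -0.336, and the darkest red is in CQ replicate 1.

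The promoters of the set share short sequences that the choice of members did not use. In the 300 bases from 250 before to 50 after the start codon, PAC (letters GCGATGAG, either strand) occurred in 31 of 50 members (62%), against 3.93% of 6007 such promoters. RRPE (letters AAAAATTTT, either strand) occurred in 37 of 50 (74%), against 6.99%, and both occurred in 24 of 50 (48%), against 1.65%. They are not particular to the set. Of 47 other small subunit factors 48.9% had PAC and 61.7% RRPE, and of 53 other large subunit factors 47.2% and 58.5%. Shares were 11.1% and 27.8% in 18 other RNA polymerase I genes and rDNA transcription factors, and 0.725% and 4.35% in 138 cytosolic ribosomal protein genes. The motifs cannot overlap each other, but a longer A and T run can match RRPE on both strands and was then counted on each. PAC matches lay at a median of 128 bases before the start codon, with 24 of 31 between 100 and 200 bases, and RRPE matches at a median of 148 bases, with 48 of 55 in that stretch. The 6 members with neither motif were RRN3, UTP22, RRP9, ENP2, NOP4 and PWP1. With the shorter letters GATGAG and AAAATTTT, 96% and 84% of members matched, against 20.4% and 9.04% of all promoters.

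The first 6 member promoters in role order that hold both motifs, from RefSeq build R64 and written 5′ to 3′ on the gene's strand, give the spacing of the motifs. Capitals mark PAC and RRPE matches on either strand.
RPA49, chrXIV:182559-182858, minus strand: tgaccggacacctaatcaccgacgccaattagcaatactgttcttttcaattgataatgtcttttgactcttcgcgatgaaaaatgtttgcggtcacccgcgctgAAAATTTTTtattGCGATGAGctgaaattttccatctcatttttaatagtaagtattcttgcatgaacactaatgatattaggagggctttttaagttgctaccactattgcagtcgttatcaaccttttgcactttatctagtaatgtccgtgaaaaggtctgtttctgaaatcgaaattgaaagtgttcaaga
UTP4, chrIV:1116714-1117013, minus strand: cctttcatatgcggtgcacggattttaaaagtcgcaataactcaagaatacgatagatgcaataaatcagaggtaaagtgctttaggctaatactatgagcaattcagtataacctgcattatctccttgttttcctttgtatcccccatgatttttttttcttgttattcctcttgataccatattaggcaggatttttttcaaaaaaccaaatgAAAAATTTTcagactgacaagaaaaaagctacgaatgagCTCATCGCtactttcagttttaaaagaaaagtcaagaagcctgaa
UTP5, chrIV:1267221-1267520, plus strand: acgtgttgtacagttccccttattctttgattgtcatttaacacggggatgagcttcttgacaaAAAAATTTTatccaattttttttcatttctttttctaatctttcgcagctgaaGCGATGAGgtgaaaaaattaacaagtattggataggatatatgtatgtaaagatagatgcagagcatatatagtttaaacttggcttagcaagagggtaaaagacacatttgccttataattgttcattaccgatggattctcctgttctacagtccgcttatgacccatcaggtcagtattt
UTP10, chrX:217260-217559, minus strand: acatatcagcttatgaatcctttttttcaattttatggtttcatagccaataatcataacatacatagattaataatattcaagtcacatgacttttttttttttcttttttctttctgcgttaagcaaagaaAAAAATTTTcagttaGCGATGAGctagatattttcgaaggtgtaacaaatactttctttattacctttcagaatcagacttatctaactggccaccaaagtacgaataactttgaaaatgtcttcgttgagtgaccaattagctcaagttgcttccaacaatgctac
PWP2, chrIII:223179-223478, minus strand: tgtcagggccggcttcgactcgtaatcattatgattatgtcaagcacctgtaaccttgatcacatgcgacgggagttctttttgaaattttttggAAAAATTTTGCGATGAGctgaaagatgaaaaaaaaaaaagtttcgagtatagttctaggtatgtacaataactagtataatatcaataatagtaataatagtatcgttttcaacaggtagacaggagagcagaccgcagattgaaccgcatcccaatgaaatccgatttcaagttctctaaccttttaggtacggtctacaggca
DIP2, chrXII:399407-399706, plus strand: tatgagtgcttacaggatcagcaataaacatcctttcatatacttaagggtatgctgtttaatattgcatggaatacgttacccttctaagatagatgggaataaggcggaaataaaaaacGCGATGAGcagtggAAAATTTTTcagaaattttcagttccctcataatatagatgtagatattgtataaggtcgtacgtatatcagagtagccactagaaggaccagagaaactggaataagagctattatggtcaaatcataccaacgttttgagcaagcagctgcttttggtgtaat
In PWP2 the motifs adjoin, with RRPE starting 155 and PAC 146 bases before the start codon. In RPA49 they start at 145 and 132 bases, in UTP10 at 117 and 102 bases, and in UTP5 at 186 and 133 bases. DIP2 has them in the other order, PAC at 129 and RRPE at 115 bases. UTP4 differs: its PAC letters, on the opposite strand, lie just inside the coding sequence.

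**Figure D3:**
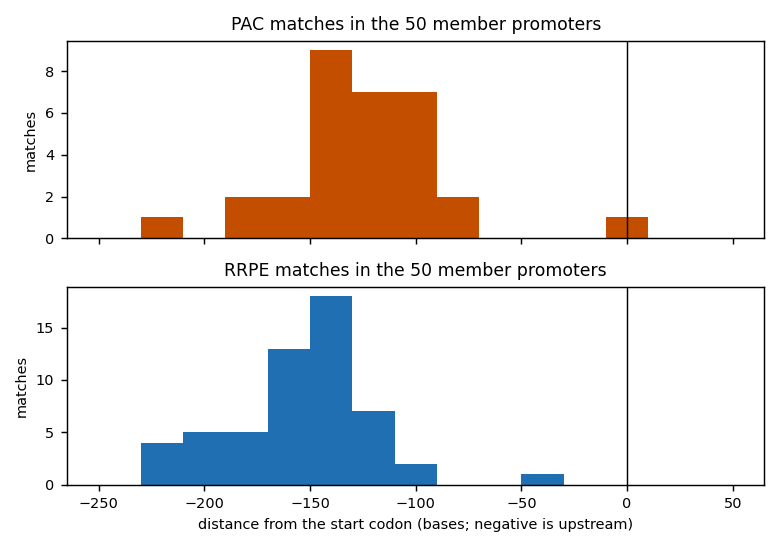
Number of PAC matches (upper panel) and RRPE matches (lower panel) by distance from the start codon in bases, over the 50 member promoters. Most matches lie between 100 and 200 bases upstream, 24 of 31 for PAC and 48 of 55 for RRPE.

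Members with and without the full PAC letters had like values. The shorter letters GATGAG were held by 48 of 50 members, so most members without the full letters still carried them. The split therefore cannot set genes with PAC against genes lacking it. With the active thione the median log2 fold change was -0.364 for the 31 with PAC and -0.356 for the 19 without, and with the inactive thione -0.37 and -0.393. For the 37 members with RRPE the medians were -0.356 and -0.365, and for the 13 without -0.383 and -0.429, in the same order of compounds. Outside the set, 75 tested genes have both motifs, and their medians were -0.235 and -0.234 with the active and inactive thione and 0.185 with CQ. Of those, 43 belong to none of the gene lists used here and had medians of -0.14, -0.0959 and 0.185; this split was chosen after values were seen.

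Proteins of the box C/D small nucleolar ribonucleoproteins, particles that methylate ribosomal RNA, and the RNA-binding protein NSR1 were among the most abundant members per coding length. Member differences are log2 fold changes against DMSO ± SE throughout, unless the thiones are set against each other. NOP58, a core protein of these particles, averaged 1337 CPM per kb of coding sequence. Its levels were 2442 and 2163 CPM in DMSO, 2574 and 2016 with CQ, 2006 and 1594 with the active thione and 1919 and 1715 with the inactive thione. All 4 thione libraries were below both DMSO libraries. NOP1, fibrillarin, the methyltransferase of the particle, averaged 1267 CPM per kb, with 1361 and 1231 CPM in DMSO, 1759 and 1203 with CQ, 1233 and 956 with the active thione and 1230 and 999 with the inactive thione. Its first active thione library was level with the second DMSO library, so the groups overlapped there. NOP56, the partner of NOP58, had 1510 and 1231 CPM in DMSO, 887 and 1069 with CQ, 1141 and 908 with the active thione and 1000 and 719.6 with the inactive thione. All 6 treated libraries of NOP56 were below both controls: the log2 fold change was -0.49 ± 0.22 with CQ and -0.42 ± 0.22 with the active thione, and with the inactive thione it was -0.67 ± 0.22, the smallest p of any member for that compound. NSR1, yeast nucleolin, averaged 946.6 CPM per kb and had log2 fold changes of -0.41 ± 0.19 and -0.43 ± 0.19 with the active and inactive thione.

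The 4 RNA polymerase I subunit genes of the set and RRN3 followed the same pattern. These 5 genes had median log2 fold changes of -0.454 and -0.393 for the active and inactive thione, and all 5 kept both libraries below both controls with each compound. RPA135, the second largest subunit, had 1410 and 1277 CPM in DMSO, 1340 and 1259 with CQ, 1153 and 810.1 with the active thione and 1084 and 851 with the inactive thione. RPA49, a subunit specific to this polymerase, had the highest level of the 5 per coding length, 387.2 CPM per kb, with 556 and 495 CPM in DMSO, 695 and 453 with CQ, 486 and 359.8 with the active thione and 473 and 349 with the inactive thione. The DMSO and thione libraries did not overlap for either gene. RRN3, which encodes the factor that makes the polymerase competent to start, was the least abundant of the 5 at 64.78 CPM per kb. It had 138 and 126 CPM in DMSO, 175 and 154 with CQ, 99.4 and 82.7 with the active thione and 112 and 89.6 with the inactive thione. RRN3 had the smallest p of any member with the active thione (-0.54 ± 0.17, adjusted p = 0.184 by edgeR's quasi-likelihood test) and was at -0.39 ± 0.16 with the inactive thione and 0.31 ± 0.16 with CQ, where both libraries were above both controls. RPA190, the largest subunit, was at -0.47 ± 0.25 and -0.56 ± 0.25 with the active and inactive thione, and RPA43, which binds Rrn3, at -0.40 ± 0.26 and -0.18 ± 0.26.

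Of the wider polymerase I machinery, 18 other subunits and rDNA transcription factors had medians of -0.173 and -0.113 with the active and inactive thione and -0.0164 with CQ, with 0 called. Some of those are subunits shared with other polymerases.

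UTP-A, the first complex to bind the nascent precursor, is represented by 6 genes with medians of -0.347 and -0.367 for the active and inactive thione. UTP5 was the most abundant of them at 305.4 CPM per kb and the steadiest member of all between replicates, with a mean absolute gap of 0.095 on the log2 scale. Its levels were 569 and 555 CPM in DMSO, 822 and 723 with CQ, 482 and 497 with the active thione and 558 and 516 with the inactive thione. Both CQ libraries stood well above the others, giving 0.46 ± 0.15 and the smallest adjusted p of any member with CQ, 0.0723 by edgeR's quasi-likelihood test; that p was 0.044 with library totals alone as scaling and 0.0276 by DESeq2, so the call depends on the procedure. With the thiones UTP5 was at -0.20 ± 0.15 and -0.06 ± 0.15. UTP9 had 489.9 and 453 CPM in DMSO, 501 and 451 with CQ, 429 and 305 with the active thione and 384 and 331 with the inactive thione, and its thione libraries were all below both controls. UTP15 had 248 and 235 CPM in DMSO, 271 and 243 with CQ, 203 and 181 with the active thione and 206 and 178 with the inactive thione, with log2 fold changes of -0.33 ± 0.14 and -0.34 ± 0.14. UTP8 had 382 and 289 CPM in DMSO, 233 and 283 with CQ, 284 and 188 with the active thione and 232 and 179 with the inactive thione. DMSO replicate 1 of UTP8 stood far above the rest, and its log2 fold change of -0.71 ± 0.23 with the inactive thione was the lowest of any member. UTP4 and UTP10, the other genes of the complex, were at -0.31 ± 0.20 and -0.53 ± 0.25 with the active and -0.23 ± 0.20 and -0.65 ± 0.25 with the inactive thione.

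UTP-B, which joins next, is represented by 4 genes whose values were close together. Their medians were -0.385 and -0.41 for the active and inactive thione, with a range of only -0.423 to -0.354 with the active thione. UTP21 had 571 and 523 CPM in DMSO, 581 and 481 with CQ, 494 and 344 with the active thione and 454 and 384 with the inactive thione. PWP2 had 544 and 483 CPM in DMSO, 482 and 435 with CQ, 429 and 337 with the active thione and 415 and 344 with the inactive thione, with -0.42 ± 0.18 for the active thione, the second smallest p there. Thione and DMSO libraries did not overlap for either. UTP13 was at -0.38 ± 0.17 and -0.45 ± 0.17, and DIP2 at -0.35 ± 0.16 and -0.25 ± 0.16.

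Another 10 genes act in or around the small subunit processome, with medians of -0.424 and -0.459 for the active and inactive thione. ENP1, which stays on the particle until export, was the most abundant of these per coding length at 244.4 CPM per kb, with 346 and 341 CPM in DMSO, 664 and 327 with CQ, 309 and 228 with the active thione and 316 and 309 with the inactive thione. CQ replicate 1 stood far above every other library. RRP12, an export factor, had 972 and 804 CPM in DMSO, 1006 and 772 with CQ, 802 and 532 with the active thione and 718 and 539.5 with the inactive thione. RRP5, needed for processing toward both subunits, had 1103 and 877 CPM in DMSO, 803 and 721 with CQ, 796 and 548 with the active thione and 742 and 507 with the inactive thione. For RRP12 and RRP5 all thione libraries were below both DMSO libraries; the log2 fold changes of RRP5 were -0.56 ± 0.24 and -0.66 ± 0.24. KRR1, a KH-domain assembly protein, had 251 and 217 CPM in DMSO, 201 and 194 with CQ, 189.7 and 165 with the active thione and 191 and 122 with the inactive thione, the low value of inactive thione replicate 2 giving -0.58 ± 0.20 for that compound.

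Others of this role differed widely in level and in replicate spread. UTP20, a very large scaffold protein, was the least abundant member per coding length at 43.67 CPM per kb, with 464 and 374 CPM in DMSO, 409.5 and 307 with CQ, 340.1 and 205 with the active thione and 302 and 213 with the inactive thione. Its second thione replicates were far below its first, and its log2 fold changes of -0.62 ± 0.27 and -0.70 ± 0.27 were the lowest and the second lowest of the set for those compounds. UTP22, of the UTP-C complex, had 301 and 261 CPM in DMSO, 277 and 298 with CQ, 269 and 202 with the active thione and 213 and 199 with the inactive thione, and its first active thione library lay within the DMSO range. ENP2 had 474 and 465 CPM in DMSO, 777 and 414 with CQ, 357 and 270.4 with the active thione and 406 and 283 with the inactive thione, with CQ replicate 1 high. RRP9, the U3-specific protein, was steady between replicates, with a mean absolute gap of 0.133, and had 305 and 330.1 CPM in DMSO, 405 and 338 with CQ, 280 and 272 with the active thione and 288 and 265 with the inactive thione. IMP3 and IMP4, which join U3 to the precursor, were at -0.45 ± 0.21 and -0.43 ± 0.21 with the active and -0.47 ± 0.21 and -0.26 ± 0.20 with the inactive thione.

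**Figure D4:**
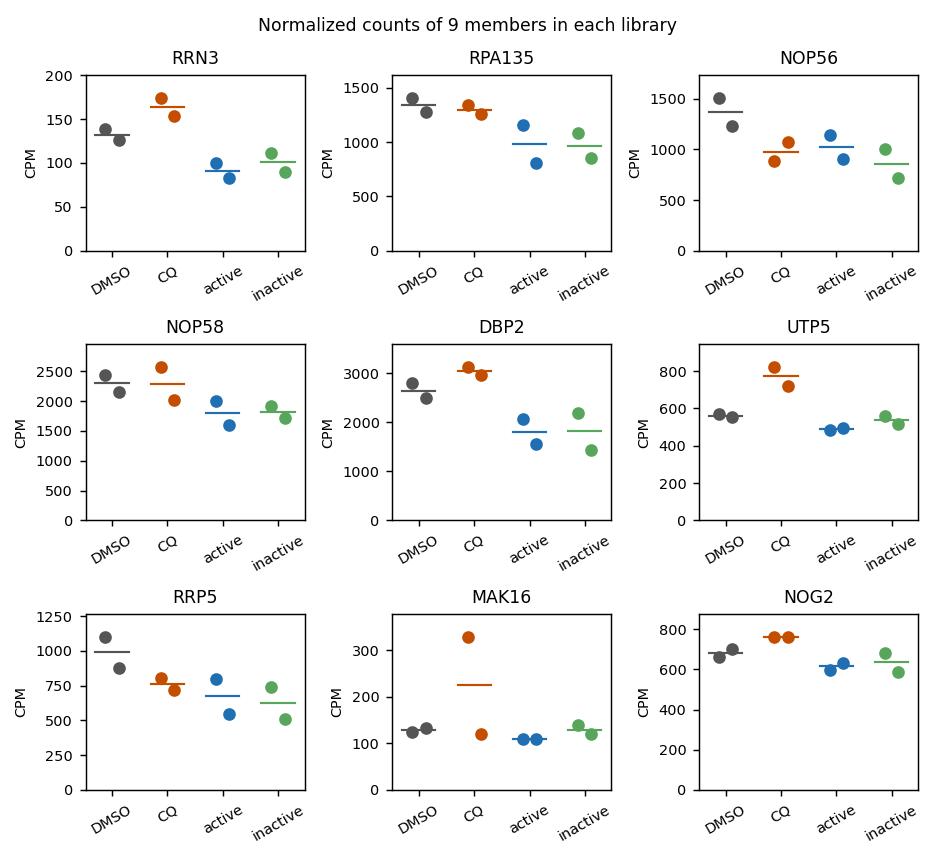
CPM (y axis, from 0) of 9 members in each group; points are the 2 libraries, replicate 1 on the left, and bars their mean. Thione libraries lie below both DMSO libraries for RRN3, RPA135, NOP56, NOP58, DBP2 and RRP5, CQ replicate 1 of MAK16 stands alone at 329.7, and UTP5 and NOG2 vary least between replicates.

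The DEAD-box RNA helicases, which remodel RNA in the precursor particles, had medians of -0.343 and -0.52 for the active and inactive thione. DBP2 was the most abundant member per coding length, at 1420 CPM per kb; its gene has an intron. It had 2795 and 2491 CPM in DMSO, 3131 and 2963 with CQ, 2066 and 1559 with the active thione and 2194 and 1439 with the inactive thione. The thione libraries stood clear of both controls and both CQ libraries above them, with -0.54 ± 0.23 and -0.54 ± 0.23 for the thiones and 0.21 ± 0.23 for CQ. DBP3 had 1037 and 994 CPM in DMSO, 1030 and 745 with CQ, 917 and 685 with the active thione and 871 and 691 with the inactive thione. DBP9 had 537 and 462 CPM in DMSO, 408 and 401 with CQ, 437 and 351 with the active thione and 393 and 304 with the inactive thione, all 6 treated libraries below both controls. DRS1 and MAK5 were at -0.34 ± 0.23 and -0.44 ± 0.23 with the active and -0.33 ± 0.23 and -0.52 ± 0.23 with the inactive thione.

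Assembly factors of the large subunit, 11 genes, had medians of -0.324 and -0.262 for the active and inactive thione, and both libraries lay below both controls for all 11 with the active thione and for 8 with the inactive thione, YTM1, MAK16 and BRX1 overlapping there. NOP7, which forms a complex with the products of ERB1 and YTM1, had 1088 and 946 CPM in DMSO, 948 and 839 with CQ, 866 and 596 with the active thione and 766 and 537 with the inactive thione. NOP4, an RNA-binding protein, had 804 and 855 CPM in DMSO, 1195 and 736 with CQ, 726 and 584 with the active thione and 768 and 652 with the inactive thione. YTM1 had 309 and 353 CPM in DMSO, 338 and 355 with CQ, 255 and 281 with the active thione and 329.9 and 263 with the inactive thione. All thione libraries of NOP7 and NOP4 lay below both controls, whereas inactive thione replicate 1 of YTM1 lay between its DMSO libraries. ERB1 was at -0.42 ± 0.24 and -0.36 ± 0.24 with the active and inactive thione.

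MAK16 and SSF1 had the highest log2 fold changes of this role with CQ. MAK16 had 124 and 134 CPM in DMSO, 329.7 and 121 with CQ, 109.8 and 110.2 with the active thione and 138 and 120.1 with the inactive thione. Only CQ replicate 1 was high, so that the log2 fold change of 0.81 ± 0.36 became -0.101 without that library and 1.33 without CQ replicate 2. SSF1, whose near-identical copy SSF2 may share its reads, had 322 and 338 CPM in DMSO, 456 and 359 with CQ, 290.3 and 275 with the active thione and 302 and 259.5 with the inactive thione, with both CQ libraries above both controls (0.31 ± 0.16). The remaining factors, CIC1, BRX1, RPF1, RPF2 and PWP1, lay between -0.36 and -0.32 with the active thione and between -0.41 and -0.20 with the inactive thione.

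The 3 GTPases of the large subunit, which act as checkpoints in its maturation, showed the smallest differences with the active thione, a median of -0.238. With the inactive thione that ranking did not hold. Their median there was -0.368, against -0.262 for the large subunit assembly factors and -0.203 for the methyltransferases. NOG1 had 1524 and 1440 CPM in DMSO, 1513 and 1283 with CQ, 1322 and 981 with the active thione and 1288 and 1008 with the inactive thione, with all thione libraries below both controls. NOG2, whose intron holds the small nucleolar RNA SNR191 on the same strand, had 661 and 702 CPM in DMSO, 764 and 762 with CQ, 599 and 634 with the active thione and 683 and 588 with the inactive thione. Its replicates were nearly level, with a mean absolute gap of 0.0964. The thione groups differed little from DMSO, at -0.14 ± 0.15 and -0.10 ± 0.15, while both CQ libraries lay above both controls. NUG1 was at -0.24 ± 0.22 and -0.37 ± 0.22.

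The ribosomal RNA base methyltransferases completed the set. NOP2 had 683 and 625 CPM in DMSO, 886 and 566 with CQ, 598 and 435 with the active thione and 571 and 542 with the inactive thione, with every thione library below both controls. RRP8 had 235 and 266 CPM in DMSO, 434 and 179.6 with CQ, 204 and 175 with the active thione and 252 and 193 with the inactive thione. Its mean absolute gap between replicates, 0.515, was the largest of any member, and CQ replicate 1 lay far above CQ replicate 2.

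The active and inactive thiones, the only pair given at a matched dose of 20 µM, were not told apart by any member. The median log2 difference, active minus inactive, was 0.00288, beside 0.0116 over all features, and 24 of 50 members were below 0. Values ran from -0.23 for MAK16 to 0.25 for NOP56, every adjusted p was 1 by edgeR's quasi-likelihood test, and no member had an unadjusted p under 0.05, against 2.26% of all features higher and 1.44% lower. Both libraries of the active thione were below both of the inactive thione for 2 members, UTP5 and MAK16, against 15.3% of all features, and above for none, against 15.4%; 5 features (0.0878%) were called higher and 2 (0.0351%) lower. The 95% intervals had half-widths from 0.322 to 0.797 on the log2 scale, with a median of 0.466. For 49 of 50 members the interval left out a 2-fold difference in either direction, and for 17 it stayed within 0.5 on the log2 scale. That median half-width was larger than the members' median difference from DMSO with either thione.

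The members with the smallest p between the thiones were NOP56, at 0.25 ± 0.22 with a 95% interval of -0.231 to 0.737, UTP22, at 0.19 ± 0.17, DBP9, at 0.18 ± 0.18, UTP5, at -0.13 ± 0.15, and YTM1, at -0.15 ± 0.16. The signs for UTP22, DBP9 and YTM1 each reversed when 1 thione library was left out.

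Other genes of ribosome production, which were not members, were high and low in the same libraries as the set. The 47 other small subunit factors had medians of -0.264 and -0.234 for the active and inactive thione and 0.149 with CQ, and the 53 other large subunit factors -0.31, -0.32 and 0.127. Both active thione libraries lay below both controls for 40 of the 47 and 42 of the 53, against 23.3% of all features, and both inactive thione libraries for 29 and 41, against 26.4%. RNA polymerase III subunits (10 genes) had medians of -0.235 and -0.192, and the exosome and trimming factors (17 genes), which mature ribosomal RNA ends, -0.251 and -0.25. In none of these lists was any gene called in any comparison. The 138 genes taken as cytosolic ribosomal proteins by name, a rule that also catches the RNase P subunit gene RPP1, had medians of -0.0864 and -0.246 with the active and inactive thione and -0.117 with CQ, with 0 called. Their summed level was lowest in inactive thione replicate 2, at 87580 CPM, and between 102900 and 117600 CPM elsewhere.

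**Figure D5:**
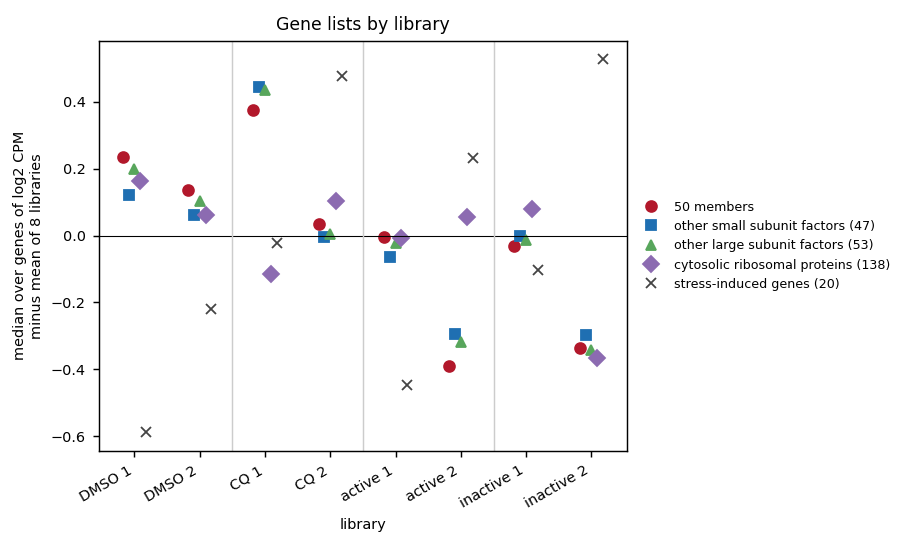
Median over each list of log2 CPM minus the mean of 8 libraries (y axis) in each library (x axis); the number of genes is in the key. Members and other subunit factors are high in CQ replicate 1 and low in the second thione replicates, while stress-induced genes run from -0.588 in DMSO replicate 1 to 0.527 in inactive thione replicate 2.

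Genes of the environmental stress response differed between libraries too, and between the replicates of each group in the opposite sense. Against DMSO the opposite sense did not hold for CQ, where the medians of the stress list and of the members, 0.649 and 0.0666, were both above 0. The 20 stress-induced genes, all detected, summed to 1980 and 2452 CPM in DMSO, 2791 and 4379 with CQ, 2111 and 3432 with the active thione and 2679 and 4098 with the inactive thione. In every group the replicate with the higher stress sum, replicate 2, had the lower member median. That was not particular to the stress list. The sums of the galactose genes and of the stationary phase markers were also higher in replicate 2 of every group. The stress list's median log2 fold change was 0.461 and 0.619 with the active and inactive thione and 0.649 with CQ. Its part in the members' shift was not tested. With CQ 4 of the 20 were called higher, against 4.92% of all features, among them HSP26, a small heat-shock protein gene, at 2.70 ± 0.27 (SE). CTT1, cytosolic catalase, was called lower at -3.62 ± 0.27 (SE), against 8.39% of all features called lower. With the thiones 1 of the 20 was called: YGP1, a secreted stress glycoprotein, fell by 0.79 on the log2 scale with the active thione (adjusted p = 0.0345 by edgeR's quasi-likelihood test), a call lost under 6 of 15 alternatives, with adjusted p up to 0.465.

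Markers of other cell states had low summed levels. The 10 stationary phase markers summed to 171.6 and 205.3 CPM in DMSO, 265.2 and 284.3 with CQ, 180.9 and 226.6 with the active thione and 232.7 and 308.7 with the inactive thione. Over the 9 tested, the median log2 fold change against DMSO was 0.6 for CQ, 0.042 for the active thione and 0.663 for the inactive thione, and both libraries lay above both controls for 5, 3 and 7 of them, against 29.5%, 29.8% and 32.2% of all features. Of these markers GRE1 and SIP18 were called higher with CQ, at 1.70 ± 0.26 and 1.37 ± 0.30 (SE), against 4.92% of all features. The call of SIP18 was lost under 2 of 15 alternatives. The 10 meiosis and sporulation markers summed to between 32.05 and 58.49 CPM. Of the 8 tested, SPO11 and SPS4 were called lower with CQ, at -1.96 ± 0.26 and -1.46 ± 0.23 (SE), against 8.39% of all features. None of either list was called with a thione, and no marker of either list was at 0 in all libraries. Their part in the members' values was not tested.

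Among 16 regulators of these genes, 3 were called higher and 1 lower with CQ, against 4.92% and 8.39% of all features. DOT6, a PAC-binding repressor, had log2 fold change 0.70 ± 0.19 (SE) with adjusted p = 0.0398 by edgeR's quasi-likelihood test. IFH1, a coactivator of ribosomal protein genes, had 0.58 ± 0.16 with adjusted p = 0.0436, and SFP1, an activator of ribosome biogenesis genes, 0.52 ± 0.15 with adjusted p = 0.0468. TOR1, a TORC1 kinase gene, was lower at -0.74 ± 0.14 with adjusted p = 0.00682. The first 3 calls were close to the threshold and were lost under 6 to 9 of 15 alternatives, with adjusted p up to 0.337 for DOT6, 0.356 for IFH1 and 0.296 for SFP1; TOR1 had 0.0555 and 0.0571 without DMSO replicate 1 and DMSO replicate 2. No regulator was called with a thione. STB3, the RRPE-binding repressor, was at 0.54 ± 0.15 with the active thione (adjusted p = 0.149) and 0.47 ± 0.15 with the inactive thione (adjusted p = 0.344). SFP1 was at 0.02 with either thione, SCH9 at -0.33 and -0.28, DOT6 at -0.14 and 0.11, IFH1 at -0.20 and -0.12, TOD6 at -0.38 and -0.22, and FHL1 at -0.23 and -0.19 with the active and inactive compound.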

How the data were processed

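The authors deposited raw read counts per annotated feature, with a column for each library. The build was sacCer3 and the tools named were TopHat2 2.1.1, TopHat, DESeq and HTSeq, per the submitters' processing notes. The sources used here give neither counting mode nor strand setting, so overlapping and antisense reads may not be separable. The authors' 8 normalized columns were not used. Members, roles and gene lists were chosen with earlier results of these data known. Counts of 8 libraries in 4 groups entered 1 fit of edgeR 4.0.16 (R 4.3.3; quasi-likelihood, two-sided, TMM scaling, filterByExpr, 1 term per group), with P-values adjusted by Benjamini-Hochberg over 5696 features at 0.05 and log2 fold changes given with SE. The common biological coefficient of variation was 0.1526, and the procedure was tested on simulated data. Levels between genes are CPM per kb of coding length. Values in every library are given for the 2 highest members per role, the 5 with the smallest p per comparison and the 3 with the largest and smallest mean replicate gap. Gene names, coordinates and promoters come from RefSeq R64. Alternatives were 3 other scalings, no filter, a replicate term, each library left out, only the compared groups, and DESeq2 1.42.0.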

Additional observations from a re-analysis of the deposited data

How the results depend on the processing

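The sign of the thione medians held under every alternative run, with 49 or 50 members below 0, and no scaling moved the all-feature median by 0.1. Leaving out 1 library gave member medians from -0.173 to 0.153 with CQ, -0.566 to -0.222 with the active thione and -0.555 to -0.238 with the inactive thione, -0.207 to 0.19 between the thiones and -0.474 to -0.269 for both thiones against DMSO. Features called then ran from 367 to 1419 with CQ, 4 to 108 with the active thione and 1 to 18 with the inactive thione. They ran from 3 to 10 between the thiones and 4 to 82 for both thiones. The fit without CQ replicate 2 kept 1 CQ library, so calls of single members from it are not given. In that fit the log2 fold changes with CQ were 0.728 for RPA43, 0.918 for ENP1, 1.33 for MAK16 and 0.76 for RRP8. There 17 of 50 members were below 0.

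Fits with the replicate number as a block called 174 features with the active thione (145 higher, 29 lower) and 54 with the inactive thione (48 higher, 6 lower). They called 13 between the thiones (9 higher, 4 lower) and 226 for both thiones (177 higher, 49 lower). Of the 50 members, UTP20 (1 lower) was then called with the active thione. RRN3, UTP20, RRP5 and NOP7 (4 lower) were called for both thiones, and UTP5 (1 higher) with CQ. With CQ those fits called 386 features higher and 566 lower. The numbers are not stated to pair the cultures. Over all features, the gaps between replicates 1 and 2 correlated at 0.435 between DMSO and the active thione. They correlated at 0.471 between DMSO and the inactive thione and at 0.363 between the thiones. Pairs with CQ gave -0.153 for DMSO, 0.227 for the active thione and -0.0638 for the inactive thione. DESeq2 called 183 features with the active thione, 84 with the inactive thione, 26 between the thiones and 210 for both thiones. With CQ it called 380 higher and 580 lower. Only the compared groups gave 133 with the active thione and 81 for both. Library totals alone gave 16 with the inactive thione, upper-quartile factors 30 for both thiones. UTP5 was called with CQ, 1 member, by library totals alone, where 304 features were called higher and 428 lower, and by DESeq2. With 1 library left out MAK16 ran from -0.101 to 1.33 with CQ and, between the thiones, UTP22 from -0.0276 to 0.383, DBP9 from -0.00584 to 0.373 and YTM1 from -0.312 to 0.0276. The cause of these moves was not tested.

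Replicate spread, more than counting error, set the precision: with 2 libraries per group the 95% half-widths of single members against DMSO ran from 0.321 to 0.794 on the log2 scale.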
